A study of Mus musculus with 6 samples.

Results

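The parent-only promoter regions are stretches of accessible chromatin at transcription start sites (TSSs) that were called in parent neural stem and progenitor cells (NSPCs) and not in NSPCs lacking SRR2–18, an enhancer cluster downstream of *Sox2*. They were chosen by their presence in 2 deposited peak lists. A region of the parent list was taken when no region of the ΔSRR2–18 list overlapped it by 1 bp or more and the TSS nearest to its strongest summit, in the basic GENCODE M21 annotation, was at most 1 kb away. This rule gave 2516 of the 16584 promoter regions in the parent list, or 15.2% (95% Wilson interval 14.6 to 15.7), out of 82885 parent regions in all. The other 14068 parent promoter regions overlapped a ΔSRR2–18 region and are called shared promoters here. In the opposite direction, 3746 of 17861 promoter regions of the ΔSRR2–18 list (21.0%) overlapped no parent region.

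Accessibility was measured by ATAC-seq, in which a transposase inserts sequencing adapters into open DNA. The parent NSPCs (clone 5B) came from F1 hybrid ESCs of a 129 and a castaneus mouse and carried a Sox2-mCherry fusion on the 129 allele with no deletion. The ΔSRR2–18 NSPCs (clone 47D) carried the same fusion and a homozygous deletion of SRR2–18, so the deletion is represented by 1 clone and cannot be told apart from other differences between the clones. Each genotype had 3 cultures, grown in N2B27 medium with EGF and bFGF on poly-d-lysine and laminin. The authors' lists pool the 3 cultures of a genotype. Hence the values below carry no replicate error, genotypes could not be compared by a test, and the 95% intervals cover counting error over regions only. Which list a region stood in is a description and not a test result, and fewer cells with an open region cannot be told apart from less open chromatin per cell.

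Most mammalian promoters lie in CpG islands, stretches where the dinucleotide CG has escaped its usual depletion. Such promoters tend to be open in most cell types, whereas promoters with few CpGs are more often open in particular cell types. NSPCs are the dividing progenitors of neurons and glia. SOX2 and related SOX factors keep them in the progenitor state, NFI factors act in neural stem cells and in astrocyte formation, and RFX factors act at the promoters of ciliary and brain genes. Proneural genes encode bHLH transcription factors that drive progenitors into neuronal differentiation.

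The sequences below are examples of the CpG content and motifs that are counted further below. All are the plus strand of mm10, read 5′ to 3′ around the strongest summit, with bases of annotated exons left out. The first pair shows the 2 extremes of CpG content, with every CG in capitals. *Gm17677*, an uncharacterised gene, is the strongest CpG-poor member named below whose whole window lies outside exons, and its 201 bp hold no CG. *Lmx1b*, which encodes a homeodomain factor of the midbrain and hindbrain, is the strongest such CpG-rich member, with 31 CG.

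Gm17677, chr9:35740815-35741015: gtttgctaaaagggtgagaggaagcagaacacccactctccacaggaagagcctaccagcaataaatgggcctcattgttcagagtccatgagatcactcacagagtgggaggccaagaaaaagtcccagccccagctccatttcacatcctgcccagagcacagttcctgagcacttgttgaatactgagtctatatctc

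Lmx1b, chr2:33640760-33640960: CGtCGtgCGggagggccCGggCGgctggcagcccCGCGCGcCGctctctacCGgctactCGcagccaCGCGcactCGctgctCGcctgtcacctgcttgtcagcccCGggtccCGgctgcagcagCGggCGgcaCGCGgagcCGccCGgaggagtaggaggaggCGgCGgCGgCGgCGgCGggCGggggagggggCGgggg

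The next 3 windows hold an exact SOX match (ACAATGG or ACAAAGG, either strand), shown in capitals. They were taken from the members named below by strength or gene list. Other members with a match were stronger than those of *Sox13* and *Sox6* and are not shown. Among them were *Map7d2*, *Hepacam*, *Cnpy1*, *Gabrg1*, *Sema6a* and *Rfx4*, and *Map7d2* was also stronger than *Neurod1*. *Neurod1* encodes a neurogenic bHLH factor, and *Sox13* and *Sox6* encode SOX factors of the SoxD group.

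Neurod1, chr2:79456786-79456966: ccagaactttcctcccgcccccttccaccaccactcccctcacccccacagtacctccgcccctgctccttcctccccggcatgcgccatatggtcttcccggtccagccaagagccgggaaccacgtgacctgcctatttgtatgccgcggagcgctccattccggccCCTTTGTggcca

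Sox13, chr1:133393296-133393496: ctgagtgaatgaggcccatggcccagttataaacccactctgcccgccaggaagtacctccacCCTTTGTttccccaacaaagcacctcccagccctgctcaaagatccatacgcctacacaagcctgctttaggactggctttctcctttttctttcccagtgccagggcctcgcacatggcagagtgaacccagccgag

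Sox6, chr7:116031142-116031342: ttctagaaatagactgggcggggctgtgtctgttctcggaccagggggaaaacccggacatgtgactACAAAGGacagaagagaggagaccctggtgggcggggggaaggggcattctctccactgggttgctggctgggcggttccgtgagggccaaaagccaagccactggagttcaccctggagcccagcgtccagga

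The last 3 windows hold an exact RFX match (GTTGCCA, either strand) and, in *Sv2b* and *Six3*, an NFI match (TTGGCA, either strand). Both kinds are in capitals. *Sv2b* encodes a synaptic vesicle glycoprotein, *Six3* a transcription factor of the anterior forebrain and eye, and *Gm4491* is uncharacterised.

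Gm4491, chr14:57115943-57116143: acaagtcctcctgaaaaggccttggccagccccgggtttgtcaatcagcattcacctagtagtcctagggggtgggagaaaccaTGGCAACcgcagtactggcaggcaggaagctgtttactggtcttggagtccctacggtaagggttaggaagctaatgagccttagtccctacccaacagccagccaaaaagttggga

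Sv2b, chr7:75220832-75221032: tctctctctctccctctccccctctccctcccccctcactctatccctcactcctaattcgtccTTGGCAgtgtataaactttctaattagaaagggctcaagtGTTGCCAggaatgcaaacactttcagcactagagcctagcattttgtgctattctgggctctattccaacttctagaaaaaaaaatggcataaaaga

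Six3, chr17:85620690-85620789: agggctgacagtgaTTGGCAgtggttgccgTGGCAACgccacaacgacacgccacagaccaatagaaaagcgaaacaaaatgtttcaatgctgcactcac

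A match is a run of letters and not evidence of binding. Of these 8 regions, those of *Neurod1* and *Six3* overlapped a region of the second, optimal ΔSRR2–18 list and the other 6 overlapped neither list.

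The labelled cell type was checked against marker genes. All 14 NSPC markers, among them *Nes*, *Sox1*, *Pax6* and *Fabp7*, had a promoter region in both lists. *Sox2* itself had 2 parent promoter regions, both shared. The only NSPC marker with a parent-only promoter region was *Hes1*, and that region, 956 bp downstream of its TSS, had a fold enrichment of 1.52 while the other *Hes1* region was shared. Of 8 ESC markers, *Esrrb* and *Klf4* had a promoter region in both lists, and the other 6, including *Pou5f1* and *Nanog*, had none in either. Of 6 astrocyte markers, *Aldoc* and *S100b* had a promoter region in both lists, and *Gfap*, *Aqp4*, *Aldh1l1* and *Gjb6* had none in either. Of 8 neuronal markers, 5 had a promoter region in the parent list and 6 in the ΔSRR2–18 list. Epithelial markers had a promoter region for 1 of 6 genes in the parent list and 3 of 6 in the ΔSRR2–18 list. Oligodendrocyte markers had one for 3 of 7 and 4 of 7. Mesenchymal markers had one for 5 of 6 in each list, and mesoderm and endoderm markers for 4 of 6 and 5 of 6. An open promoter of a marker thus does not by itself single out a cell type.

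The parent list was the deeper one. Its lowest local background, solved from the fold enrichment and −log10 p of each peak, was 38.8 reads against 19.7 in the ΔSRR2–18 list, a depth ratio of 1.98. Weak parent regions could thus be missing from the shallower list, and how many are was not tested. Each parent −log10 p was therefore recomputed at the ΔSRR2–18 depth. At that depth all 2516 members and all shared promoters stayed above the lowest value of any ΔSRR2–18 promoter region, 2.23. That limit therefore cannot tell which members would have been called. The 10th percentile of the ΔSRR2–18 promoter regions was reached by 1405 members (55.8%, 53.9 to 57.8). The median of the ΔSRR2–18 promoter regions was reached by 323 (12.8%, 11.6 to 14.2).

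The members were weaker and narrower than the promoters that both genotypes shared. Their median fold enrichment over local background was 6.93, with a range of 1.49 to 32.6, against a median of 14.9 in shared promoters. The median read number at the summit was 598 against 3055, and the median width was 596 bp against 1043 bp. A single summit made up 65.9% of members and 28.8% of shared promoters. The IDR score, which grades how alike a peak ranked across cultures, was at its maximum of 1000 in 1894 members (75.3%). The optimal ΔSRR2–18 list overlapped 265 members (10.5%), and 2251 overlapped neither list.

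The thresholds of the rule cut through a continuum. The member farthest from a TSS was at 1000 bp, a region near *5930420M18Rik* with a fold enrichment of 13.7, and the nearest parent-only region outside was at 1001 bp from the TSS of *Apoc1*, with 8.54. The member closest to a ΔSRR2–18 region was 5 bp away, near the Wnt receptor gene *Fzd2*, with a fold enrichment of 2.31. The promoter region that missed by the smallest overlap shared 3 bp with a ΔSRR2–18 region, near *Bmp6*, with 4.57.

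CpG content set the members apart from shared promoters. CpG content is the number of CGs over that expected from the base composition, here in 500 bp around the summit. A region was CpG-poor under a ratio of 0.48, CpG-rich over 0.75 with a GC content over 55%, and intermediate otherwise. The median ratio was 0.254 in members and 0.775 in shared promoters, and the median GC content was 50.0% against 63.2%. CpG-poor regions made up 84.5% of members (83.0 to 85.8) and 16.2% of shared promoters, a ratio of 5.23 (5.02 to 5.45). The promoter regions found only in ΔSRR2–18 NSPCs were also mostly CpG-poor, at 70.6%, so the CpG-poor share of members was 1.20 times theirs (1.17 to 1.23).

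**Figure D1:**
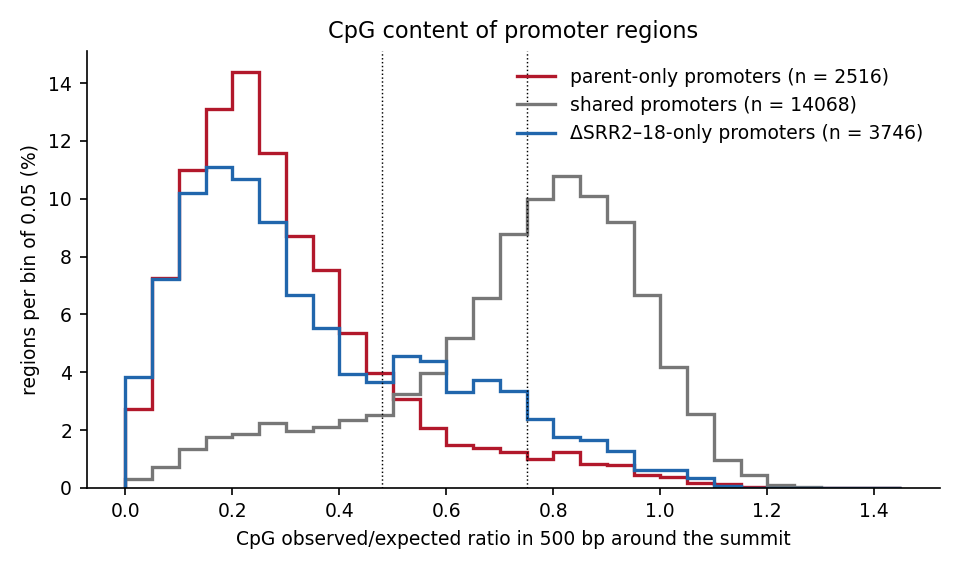
Distribution of the CpG observed/expected ratio (x axis) as the percentage of regions per bin of 0.05 (y axis) for 2516 parent-only, 14068 shared and 3746 ΔSRR2–18-only promoter regions, with dotted lines at 0.48 and 0.75. Both classes found in 1 genotype peak near 0.2, and shared promoters peak above 0.75.

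Seen from the promoter classes, 2125 of 4398 CpG-poor promoter regions in the parent list were parent-only (48.3%, 46.8 to 49.8). The share was 281 of 4667 intermediate regions (6.02%) and 110 of 7519 CpG-rich regions (1.46%, 1.22 to 1.76), so it was 33.0 times higher in CpG-poor than in CpG-rich promoters (27.4 to 39.9). The difference stood within bands of peak strength. In the weakest decile of parent promoter regions by −log10 p at the ΔSRR2–18 depth, 70.0% of CpG-poor regions and 29.8% of CpG-rich regions were parent-only. In the strongest decile the shares were 10 of 54 CpG-poor regions (18.5%, 10.4 to 30.8) and 0 of 1119 CpG-rich regions, which allows a share of up to 0.268% at 3 counts and 0.342% by the Wilson interval. It also stood at the TSS itself. Among promoter regions with a summit within 100 bp of a TSS, 39.9% of CpG-poor and 0.734% of CpG-rich regions were parent-only.

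**Figure D2:**
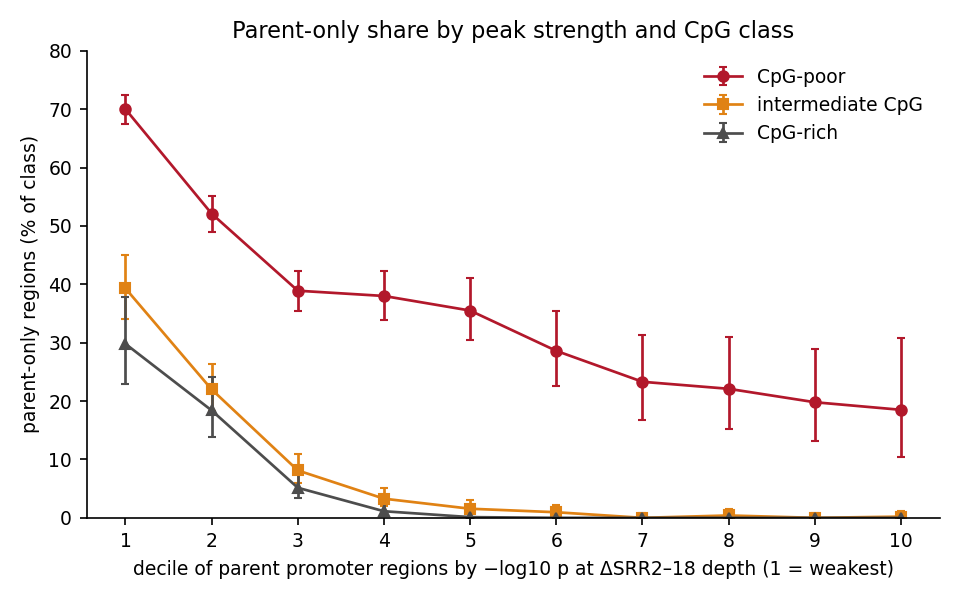
Share of parent promoter regions that were parent-only (y axis, percent, with 95% Wilson intervals) in deciles of peak strength (x axis, −log10 p at the ΔSRR2–18 depth, 1 the weakest), by CpG class. The share is lower in stronger deciles, from 70.0% to 18.5% in CpG-poor regions and from 29.8% to 0 in CpG-rich ones.

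The strongest of the few CpG-rich members mixed neural genes with others, such as *Ltbp4*, *Hrk* and *Arid4a*. The share of neural genes among CpG-rich members was not counted. Ranked by −log10 p at the ΔSRR2–18 depth, the strongest of the 110 lay at *Neurod1* (783), followed by *Mroh5* (670), the proneural gene *Neurog2* (656) and *Rfx4* (637), which encodes an RFX factor of the developing brain. *Rfx4* was singled out after its values were seen, and its 2 promoter regions were both parent-only, with fold enrichments of 6.09 and 2.16. The distance to the nearest ΔSRR2–18 region was 402 bp for the first and 1334 bp for the second. The region of *Neurog2* was 91 bp from the nearest ΔSRR2–18 region, and that of *Neurod1* overlapped the optimal ΔSRR2–18 list.

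The members lay farther from TSSs than shared promoters did, with a median of 336 bp between summit and TSS against 64 bp. The summit was within 100 bp of a TSS in 656 members, at 101 to 500 bp in 897 and at 501 to 1000 bp in 963. Upstream summits numbered 1340, and 1176 were at or downstream of the TSS. The parent-only share of parent promoter regions was 7.04% within 100 bp, 18.5% at 101 to 500 bp and 39.7% at 501 to 1000 bp.

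The kind of gene differed too. The nearest TSS belonged to a protein-coding gene for 1199 members, which were 9.01% of the parent promoter regions of that kind (8.54 to 9.51). It belonged to a lincRNA for 405 (39.9%, 36.9 to 42.9), an antisense transcript for 260 (39.0%) and a processed pseudogene for 175 (58.7%, 53.1 to 64.2). An annotated miRNA hairpin was nearest for 87 (39.7%), and a hairpin's 5′ end is not the start of its primary transcript. Within 1 kb of the summit, 1233 members had a protein-coding TSS and 1283 had noncoding or pseudogene TSSs only. The contrast in CpG content was also present among promoters of protein-coding genes, with 41.1% of CpG-poor and 1.32% of CpG-rich regions parent-only. Across chromosomes the parent-only share ranged from 11.3% on chromosome 11 to 20.0% on chromosome 1.

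Many members were near other open chromatin of the ΔSRR2–18 cells. A ΔSRR2–18 region lay within 500 bp of 482 members (19.2%), within 1 kb of 689 (27.4%) and within 10 kb of 1844 (73.3%). The 92 members within 100 bp of one had a median fold enrichment of 3.19, and the 567 members 10 to 50 kb away had 9.64.

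At the level of genes, 1190 of the 13277 protein-coding genes with a parent promoter region had at least 1 parent-only one (8.96%). For 588 of them another promoter region was shared, so the gene kept an open start site in both lists. For the remaining 602 genes (4.53% of 13277) every parent promoter region was parent-only. Of these 602 genes, 533 had no promoter region of any kind in the ΔSRR2–18 list and 63 had a ΔSRR2–18-only one elsewhere at the gene.

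The 12 strongest protein-coding members outside both ΔSRR2–18 lists had fold enrichments of 24.7 to 32.6 and were not led by neural transcription factors. The first was at the olfactory receptor gene *Olfr373* (chr8:72099268-72099903, 32.6), with a summit 176 bp upstream of the gene's TSS in an annotated UTR exon and no ΔSRR2–18 region within 34915 bp. *Smim18*, which encodes a small integral membrane protein, followed at 30.9 (chr8:33747401-33748102), with its summit 20 bp upstream of the TSS in an intron of an overlapping transcript. *Plpp7*, of the phospholipid phosphatase family, had 29.6 (chr2:32095296-32096212) and the third-highest summit read number of the 12, at 2875. All 12 had an IDR score of 1000, 11 were CpG-poor, and 11 had their summit within 200 bp of a TSS, the exception being *Lypd6* at 700 bp.

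The rest of the 12 mixed several functions. *Map7d2* (27.2), on the X chromosome, encodes a microtubule-associated protein and held a SOX match. *Rimklb* (26.8) encodes an enzyme that makes N-acetylaspartylglutamate, a neuropeptide, and held an RFX match. *Lypd6* (25.1) encodes a membrane-anchored regulator of Wnt signalling and of nicotinic receptors, and *Tmprss5* (24.7) a transmembrane serine protease. *Esr1* (26.7) encodes oestrogen receptor alpha, and *Cyp4f40* (26.7) a cytochrome P450. *Iqub* (27.3) had a ΔSRR2–18 region 426 bp from the member. *Map7d2*, *Rimklb*, *Lypd6* and *Tmprss5* each had a second, shared promoter region.

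Lists of genes by function were then counted, each against the 4.53% of all protein-coding genes whose parent promoter regions were all parent-only. Counts of genes with at least 1 member have another background, the 8.96% of all protein-coding genes with a parent promoter region. For the opposite direction the background was 14.0%, as 1955 of the 13974 protein-coding genes with a promoter region in the ΔSRR2–18 list had at least 1 ΔSRR2–18-only one. Since members and lists were chosen with earlier results known, the counts carry no test.

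Proneural and neurogenic genes stood highest among the neural lists. Of 24 genes, 16 had a parent promoter region, and for 6 of the 16 (37.5%, 18.5 to 61.4) all such regions were parent-only. None of the 6 had a promoter region in the ΔSRR2–18 list, and 0 of the 13 genes of the list with a ΔSRR2–18 promoter region had a ΔSRR2–18-only one. *Neurod4*, which encodes a bHLH factor of early neurons, had a fold enrichment of 22.6 (chr10:130279875-130280555), with its summit 2 bp from the TSS and the nearest ΔSRR2–18 region 35144 bp away. *Neurod1*, which drives neuronal differentiation, had 19.5 (chr2:79456414-79457246), its summit 115 bp upstream of the TSS, and an overlap with the optimal ΔSRR2–18 list. *Neurog2*, a proneural gene of cortical progenitors, had 10.4 (chr3:127632389-127633009) with a summit 404 bp upstream of the TSS.

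The other 3 were weaker. *Myt1*, which encodes a zinc finger factor of neurogenesis, had 5.67 at a summit 736 bp downstream of its TSS. *Neurod6* had 4.72 and *Nhlh1* 3.97, and both were added to the named genes after their values were seen. At the ΔSRR2–18 depth the −log10 p was 436 at *Neurod4*, 783 at *Neurod1* and 656 at *Neurog2*, above the 98.6 of the 10th percentile of ΔSRR2–18 promoter regions. It was 79.0 at *Myt1*, 37.9 at *Neurod6* and 24.1 at *Nhlh1*, all below it. Only the first 3 therefore remain when regions below this limit are left out. Of these, *Neurod1* overlapped the optimal ΔSRR2–18 list and *Neurog2* lay 91 bp from a ΔSRR2–18 region, so only *Neurod4* stood clear of both.

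Radial glia and astrocyte genes also stood above the background of 4.53%. Of 30 genes with a parent promoter region, 5 had a member and for 4 (13.3%, 5.31 to 29.7) no shared promoter region remained, while 2 of 26 (7.69%) had a ΔSRR2–18-only one. *Acsbg1*, a fatty acyl-CoA synthetase gene of brain lipid metabolism, had 18.1 (chr9:54661187-54662643). *Hepacam* (15.8, chr9:37367210-37368216) encodes an astrocyte adhesion protein, and *Mlc1* (15.1, chr15:88978363-88979498) a membrane protein that HEPACAM brings to astrocyte junctions. *Gpr37l1*, an astrocyte receptor gene, had 5.67. All 4 were CpG-poor with the summit at most 238 bp from the TSS, and none of the 4 overlapped the optimal ΔSRR2–18 list. The window of *Hepacam* held both a SOX and an NFI match, and that of *Mlc1* an NFI match. *Aldoc* had a member at 3.91 beside a shared promoter region.

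Genes of synaptic and neuronal adhesion had a member in 13 of 57 genes, and for 9 (15.8%, 8.54 to 27.4) all parent promoter regions were parent-only. In the opposite direction, 16 of 59 (27.1%) had a ΔSRR2–18-only promoter region. *Cntn6* (23.8, chr6:104492608-104493393) and *Cntn4* (22.5, chr6:106118364-106119222) encode contactins, immunoglobulin-type adhesion molecules of axons. *Cntn6* had no other promoter region and 4065 summit reads, more than any of the 12 members above. *Cntn4* kept a second, shared one. *Lrrtm2* (15.9) encodes a postsynaptic partner of neurexins. *L1cam*, which encodes an axonal adhesion molecule, had 3 promoter regions, all parent-only, at 12.6, 7.88 and 4.62, and the 2 stronger ones overlapped the optimal ΔSRR2–18 list.

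Among genes of neuronal signalling the counts were lower. Glutamate and GABA receptor genes had a member in 4 of 27, and for 3 (11.1%, 3.85 to 28.1) it was all they had. The metabotropic glutamate receptor gene *Grm5* had 16.0, the GABA-B receptor gene *Gabbr2* 10.5, the GABA-A subunit gene *Gabrg1* 9.66 and the kainate receptor gene *Grik5* 3.87. Voltage-gated ion channel genes had a member in 10 of 61 and members alone in 5 (8.20%, 3.55 to 17.8), with *Cacnb2* (17.6), *Kcnc2* (14.8), *Scn1a* (7.43) and the auxiliary subunit gene *Cacng8* (7.02) highest. Genes of synaptic vesicles and release were near the background, with members alone in 2 of 54 (3.70%), although *Sv2b* (20.9) and the synaptotagmin gene *Syt10* (20.8) were strong. *Syt10* is CpG-rich. The regions of *Syt10*, *Grm5* and *Scn1a* overlapped the optimal ΔSRR2–18 list, and *Scn1a* also had a ΔSRR2–18-only promoter region. Axon guidance genes were below it, with members alone in 1 of 64 (1.56%, 0.276 to 8.33). That gene was *Plxnb3*, a plexin gene, at 5.44, while *Sema6a* (8.72) and *Plxnb2* (2.72) kept a shared promoter region. Cadherin and protocadherin genes had members alone in 2 of 20, *Cdh20* (7.86) and *Cdh19* (6.80), while *Cdh2* (11.7), which encodes N-cadherin, and *Pcdh19* (4.68) kept a shared one. The member of *Cdh2* overlapped the optimal ΔSRR2–18 list. A ΔSRR2–18-only promoter region was present in 9 of 31 glutamate and GABA receptor genes (29.0%), 12 of 62 ion channel genes (19.4%) and 11 of 58 vesicle genes (19.0%). It was present in 8 of 63 axon guidance genes (12.7%) and 10 of 25 cadherin and protocadherin genes (40.0%).

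**Figure D3:**
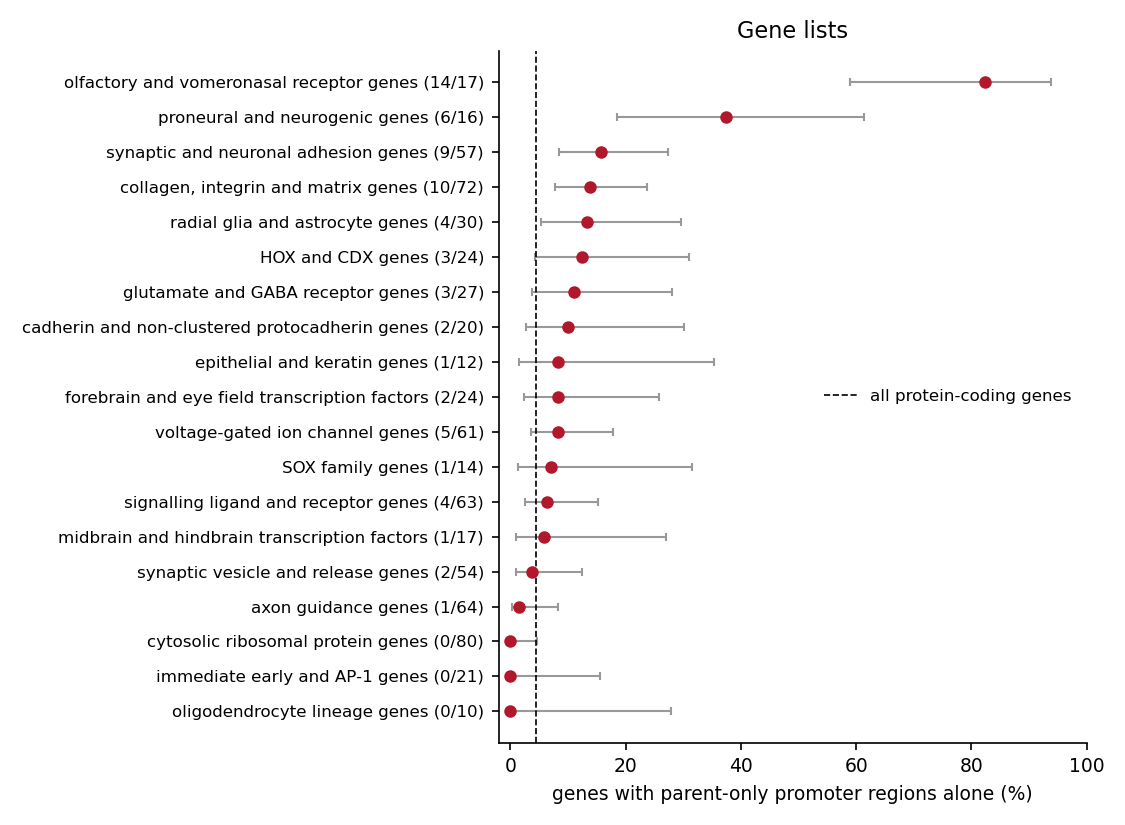
Percentage of each list's genes with a parent promoter region for which all such regions were parent-only (x axis, with 95% Wilson intervals), with the counts beside each list's name and a dashed line at the 4.53% of all protein-coding genes. Olfactory and proneural genes are farthest right, and cytosolic ribosomal protein genes are at 0 of 80.

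Signalling genes of the WNT, FGF, BMP, Hedgehog and Notch families had a member in 12 of 63 and members alone in 4 (6.35%, 2.50 to 15.2), while 11 of 67 (16.4%) had a ΔSRR2–18-only promoter region. The BMP receptor gene *Bmpr1a* (13.4) and *Fgf14* (10.6) each kept a shared promoter region. *Fgf1*, an FGF ligand gene, had a member with 10.6 and 3373 summit reads as its sole parent promoter region. That member overlapped the optimal ΔSRR2–18 list. *Fgf1* also had 2 promoter regions in the ΔSRR2–18 list, 1 of them ΔSRR2–18-only. *Dhh*, the desert hedgehog ligand gene, had 10.3.

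Transcription factors that pattern the neural axis were split among both directions. Forebrain and eye field factors had a member in 4 of 24, and for *Otx2* (11.9) and *Six3* (7.92) it was the sole parent promoter region. *Bcl11b* (4.21) and *Nr2f1* (1.91) kept a shared promoter region. In the same list 11 of 29 genes (37.9%) had a ΔSRR2–18-only promoter region, *Otx2* among them. Of the midbrain and hindbrain factors only *Lmx1b* (15.9) had a member, 1 of 17, and 2 of 17 had a ΔSRR2–18-only promoter region. *Lmx1b* was 1 of these 2, and its member lay 366 bp from a ΔSRR2–18 region. HOX and CDX genes had a member in 6 of 24 and members alone in 3 (12.5%, 4.34 to 31.0), while 11 of 31 (35.5%) had a ΔSRR2–18-only promoter region. The HOX members were modest, with *Hoxb5* at 9.0, *Hoxd11* at 7.20, *Hoxa2* at 4.89 and *Hoxa4* at 3.36, and the region of *Hoxb5* was 31 bp from a ΔSRR2–18 region. The members of *Hoxd11* and *Six3* overlapped the optimal ΔSRR2–18 list. SOX genes had a member in 3 of 14, and 4 of 16 had a ΔSRR2–18-only promoter region. *Sox14* (5.40) had no other promoter region, and *Sox13* (5.32) and *Sox6* (3.83) kept shared ones. In the oligodendrocyte list the only gene with a member was *Olig2* (2.69), 1 of 10, with a shared promoter region besides, and 6 of 14 (42.9%) had a ΔSRR2–18-only one.

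Collagen, integrin and matrix genes had members alone in 10 of 72 (13.9%, 7.72 to 23.7), and 33 of 91 (36.3%) had a ΔSRR2–18-only promoter region. *Col4a3* and *Col4a4*, which encode basement membrane collagen chains, share 1 member at their common start (16.3), so they are 1 observation. *Col22a1* had 15.6 and *Timp4*, a metalloproteinase inhibitor gene, had 15.2. The member of *Col4a3* and *Col4a4* and that of *Col22a1* overlapped the optimal ΔSRR2–18 list. Olfactory and vomeronasal receptor genes, silent in most tissues, had a parent promoter region in 17 of 1418 genes, with members alone in 14 of the 17 (82.4%, 59.0 to 93.8). After *Olfr373*, the strongest were *Olfr287* (23.6) and *Olfr288* (22.6), and *Vmn1r4* had 15.7. In that list 24 of the 27 genes with a ΔSRR2–18 promoter region (88.9%) had a ΔSRR2–18-only one. Near-identical copies in this family make the placing of reads uncertain.

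Lists of broadly expressed and other genes varied. Cytosolic ribosomal protein genes had a parent promoter region in 80 of 83, a member in 2, *Rps10* (4.24) and *Rps18* (2.54), and members alone in 0. A count of 0 of 80 allows a share of up to 3.75% at 3 counts and 4.58% by the Wilson interval, which reaches the 4.53% of all genes. Immediate early and AP-1 genes had a member in 2 of 21 (9.52%, near the 8.96% of all genes), *Egr1* (2.35) and *Btg2* (2.05), both beside a shared promoter region, and none had a ΔSRR2–18-only one. Pluripotency genes had a member in 0 of 5, and 5 of 10 had a ΔSRR2–18-only promoter region. Epithelial and keratin genes had a member in 1 of 12 (8.33%), *Krt222* at 8.33, as its sole parent promoter region, and 17 of 26 (65.4%) had a ΔSRR2–18-only promoter region.

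**Figure D4:**
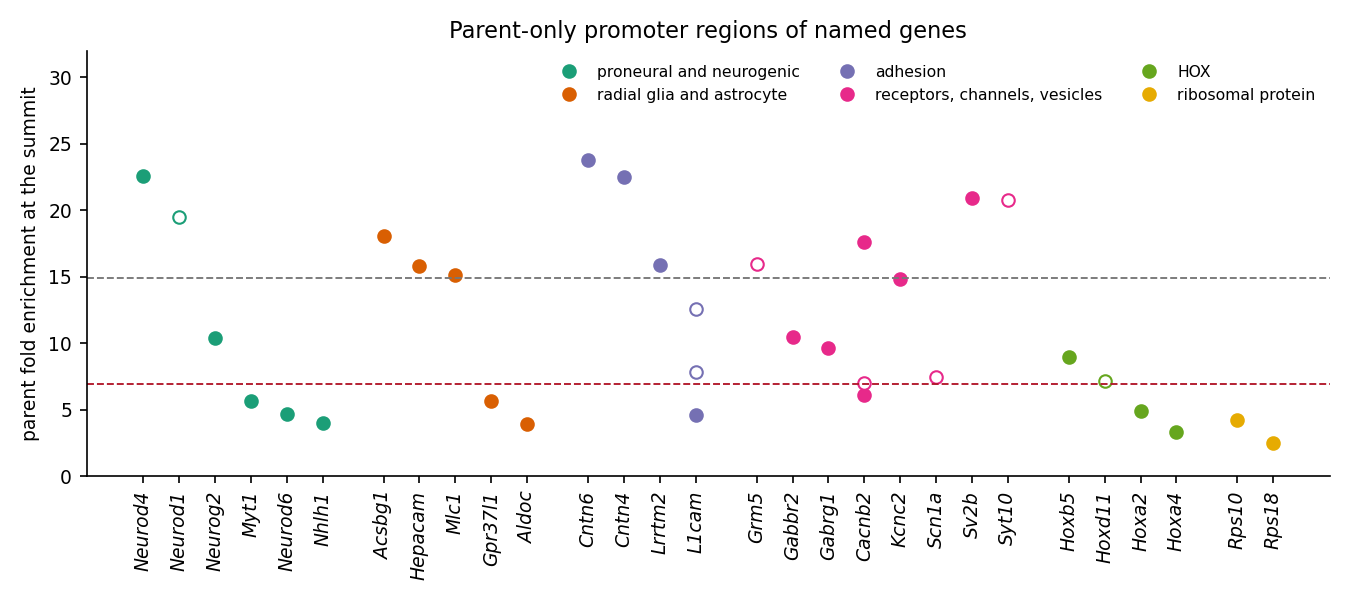
Parent fold enrichment at the summit (y axis) of each parent-only promoter region of named genes (x axis, grouped by list), with filled points for regions that overlap neither ΔSRR2–18 list and open points for those that overlap the optimal one. Dashed lines give the medians of 6.93 in parent-only and 14.9 in shared promoter regions, and the 2 ribosomal protein genes lie below both.

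Some genes held several members. *Map2*, which encodes a microtubule protein of neuronal dendrites, had the most, with 4 of its 5 promoter regions parent-only. These had fold enrichments of 19.5, 8.40, 8.37 and 2.66, and the remaining one was shared. *Cacnb2*, a calcium channel subunit gene, had 3 of 5, at 17.6, 7.03 and 6.15, and the one at 7.03 overlapped the optimal ΔSRR2–18 list. *Cnpy1*, an FGF signalling regulator expressed at the midbrain-hindbrain boundary, had 3 of 3, at 15.6, 14.1 and 6.94, with the nearest ΔSRR2–18 region 42168 bp or more away. *Psd3*, a gene of an ARF exchange factor, had 3 of 6, at 13.1, 7.60 and 7.28. Of these 4 genes, *Cnpy1* had no promoter region in the ΔSRR2–18 list.

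Of the 1190 protein-coding genes with a member, 122 also had a ΔSRR2–18-only promoter region. Among all 13974 protein-coding genes with a promoter region in the ΔSRR2–18 list, 1955 (14.0%) had a ΔSRR2–18-only one. The genes named next are examples chosen by the fold enrichment of the member. At *Mpzl2*, an epithelial junction gene, the parent-only region had a fold enrichment of 24.1 and the ΔSRR2–18-only region 22.2, each on the scale of its own list, with 2266 bp between the summits. At *Esr1* the parent-only region (26.7) was 97705 bp from the ΔSRR2–18-only one (13.4), at *Svil* (21.5 and 21.7) the distance was 52278 bp, at *Sv2b* (20.9 and 9.44) it was 87810 bp, and at *Trim66* (21.1 and 7.21) it was 13493 bp. The parent-only region of *Trim66* overlapped the optimal ΔSRR2–18 list. Over all 122 genes, an AP-1 match (TGANTCA, either strand) was sought within 100 bp of the summit. It stood in 51 of 135 ΔSRR2–18-only promoter regions (37.8%, 30.0 to 46.2) and in 3 of 135 parent-only ones (2.22%, 0.759 to 6.33). Over all promoter regions of the same classes the shares were close to these, at 35.6% and 3.42%.

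Short sequence motifs were searched as exact letters on both strands within 100 bp of each summit and in a window of the same width 500 bp away, the flank. A SOX match was in 313 of 2516 members (12.4%, 11.2 to 13.8) and in 6.92% of their flanks. It was in 4.22% of shared promoters, a ratio of 2.95 (2.59 to 3.36), in 5.63% of ΔSRR2–18-only promoters and in 5.46% of all parent promoter regions. Part of this difference went with base composition. Within CpG-poor promoters the ratio of members to shared was 1.58 (1.33 to 1.88). Within 10 groups of equal size, ranked by GC content, it was 1.67, without an interval.

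The NFI letters searched, TTGGCA, are a single arm of the palindrome that NFI factors bind. They are shorter than the SOX and RFX letters, so shares are not ranked between motifs. The full palindrome (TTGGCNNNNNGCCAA) was in 3 members and 4 shared promoters, too few to compare. The NFI arm was in 593 members (23.6%, 22.0 to 25.3) against 10.6% of their flanks, 7.39% of shared promoters and 8.94% of ΔSRR2–18-only promoters. Among CpG-poor promoters its ratio of members to shared was 1.66 (1.48 to 1.87) and to ΔSRR2–18-only 2.45 (2.15 to 2.80). The RFX match was in 191 members (7.59%, 6.62 to 8.69), 3.29 times its share in their flanks (2.47 to 4.39), and in 1.87% of ΔSRR2–18-only promoters. The RFX and NFI letters can overlap, and in 29 of the 191 every RFX match overlapped an NFI match, which left 162 that did not. At least 1 of these 3 motifs was in 957 members (38.0%, 36.2 to 40.0), 13.5% of shared and 15.3% of ΔSRR2–18-only promoters, with flanks of 18.2%, 14.7% and 16.5%. This set of 3 was not planned, and its shares are not matched for CpG content.

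Of the other motifs, some were more frequent in members and some in the promoters found only in the ΔSRR2–18 list. AP-1 was in 35.6% of ΔSRR2–18-only promoters, 3.42% of members, 4.69% of the flanks of members and 3.50% of shared promoters. Among CpG-poor promoters AP-1 was in 3.76% of members and 10.4% of shared ones. HOX-PBX (TGATTNAT) was in 1.27% of members, 0.633% of shared and 6.14% of ΔSRR2–18-only promoters. TEAD (GGAATGT) was in 5.37%, 2.14% and 7.42%. The E-box of NEUROD and NEUROG factors (CAGATGG) was in 7.07% of members and 4.17% of their flanks. It was in 2.42% of shared and 4.24% of ΔSRR2–18-only promoters. Among CpG-poor promoters the E-box was in 7.81% of members and 6.16% of shared ones. The LHX homeodomain letters (TAATTA) were in 4.77% of members and 4.73% of their flanks. ZIC (CAGCAGG) was in 11.6% of members, and among CpG-poor promoters in 12.3% of members against 14.3% of shared ones. CTCF matches were in 4.75% of CpG-poor members and 10.2% of CpG-poor shared promoters.

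The motifs of CpG island promoters were scarce in members. The GC box of SP and KLF factors (GGGCGG) was in 13.5% of members and 61.2% of shared promoters, ETS (CCGGAAG) in 2.27% and 13.2%, NRF1 in 0.278% and 6.06%, YY1 (AAGATGGC) in 0.437% and 3.23%, and NFY (CCAATNA) in 7.83% and 14.4%. Within CpG-poor promoters the GC box was in 8.14% of members and 20.1% of shared ones.

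**Figure D5:**
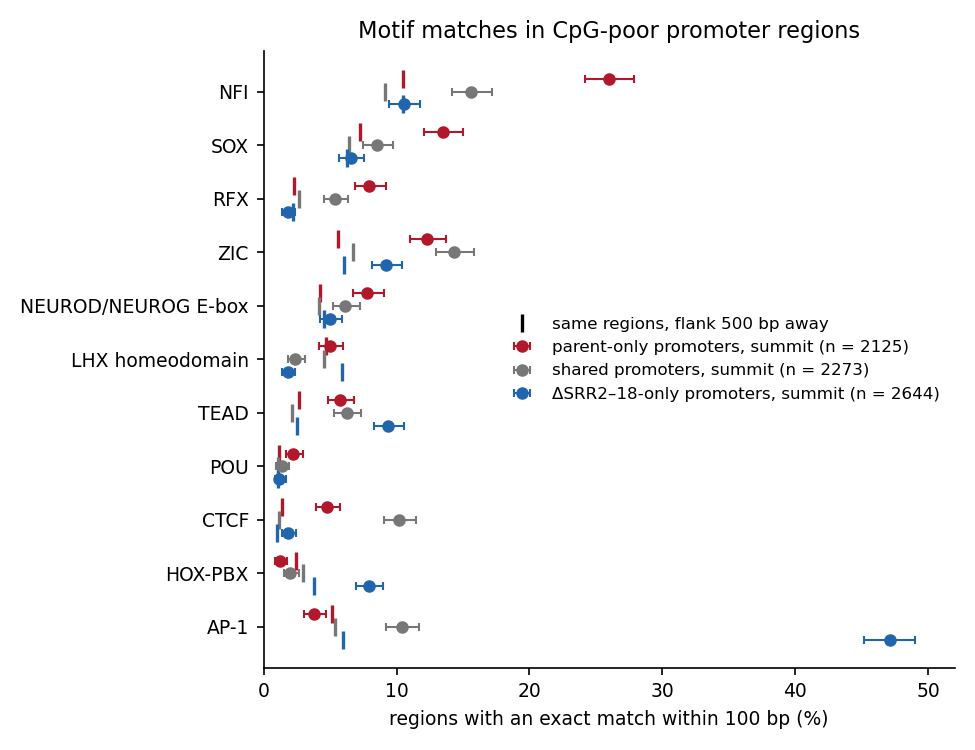
Percentage of CpG-poor promoter regions with an exact motif match within 100 bp of the summit (x axis; points with 95% Wilson intervals) and in a flank 500 bp away (vertical ticks), for 2125 parent-only, 2273 shared and 2644 ΔSRR2–18-only regions. NFI, SOX and RFX matches are most frequent in parent-only promoters, at 26.0%, 13.5% and 7.95%, and AP-1 in ΔSRR2–18-only ones, at 47.1%.

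In these motifs the members resembled the 40869 parent-only regions outside promoters. There SOX was in 15.2%, NFI in 28.5%, RFX in 6.85% and AP-1 in 4.67%. The SOX share of members was 0.817 times (0.735 to 0.909) and the NFI share 0.826 times (0.769 to 0.888) that of those regions. The RFX share was 1.11 times (0.962 to 1.28), an interval that includes equality. CpG-poor regions made up 97.2% of the parent-only regions outside promoters.

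The surroundings of members were slightly richer in parent-only regions than those of other promoters, and poorer than the regions outside promoters as a whole. Of the 10933 parent regions outside promoters within 50 kb of a member, 59.3% (58.4 to 60.2) were parent-only. The share was 57.2% (56.7 to 57.8) around shared promoters, 54.9% (53.8 to 55.9) around CpG-poor shared promoters and 55.5% (54.6 to 56.4) around ΔSRR2–18-only promoters, against 61.6% of all parent regions outside promoters. Regions near both kinds of promoter count for each. The number of such parent regions over the number of promoters was 4.35 for members, 2.39 for shared promoters and 4.07 for CpG-poor shared promoters. A region near several promoters of a kind was counted once. The value is therefore lower where promoters of that kind lie close together, and the kinds are not compared by it.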

How the data were processed

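ATAC-seq reads of 3 parent and 3 ΔSRR2–18 cultures were processed by the authors in version 1.10.0 of the ATAC-seq pipeline of ENCODE, with MACS2 peaks combined across cultures by IDR, on mm10. Each of the 4 deposited lists gives an IDR score, a fold enrichment (a ratio of summit pileup to local background), −log10 p and a summit offset per peak, and their −log10 q was not used. Depth per culture was not recovered from these pooled lists. One allele is castaneus, so reads that differ from mm10 can map less often, and alleles are not separated. The study's test on reads per culture was not repeated. Peaks were read with Python libraries (pandas 2.3.3, numpy 2.4.6, pysam 0.24.0), intervals were reduced to distinct ones with the summit of highest fold enrichment, and overlaps were checked with bedtools 2.31.1. The conservative lists were used throughout, and the optimal ones as an alternative. Reads and background were solved from fold enrichment and −log10 p under the Poisson model of MACS2 and came out whole (within 0.05) for nearly all peaks. Sequence was taken from GRCm38.p6, the same build, and TSSs from GENCODE M21 basic.

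Shares carry 95% Wilson intervals and ratios 95% intervals on the log scale. No p-value was computed. The members and gene lists were chosen with earlier results of these data known. Named genes were the 12 strongest protein-coding members outside both ΔSRR2–18 lists, up to 4 genes per list by fold enrichment, the 4 genes with the most members (ties by fold enrichment), 6 genes with regions of both kinds, and the members next to each threshold. The RFX and CpG windows, *Rfx4*, *Neurod6*, *Nhlh1* and the strongest CpG-rich members were added after the values were seen. Gene names are symbols of the annotation, and a gene's promoter regions are those with the summit within 1 kb of any of its TSSs. Read recovery, overlaps and the motif scan were tested on simulated data. A gene with its motif is not reported here.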

Additional observations from a re-analysis of the deposited data

How the results depend on the processing

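No paired analysis was possible because each list pools the 3 cultures of a genotype, and no culture could be left out for the same reason. The results below other than the SOX ratio are counts or shares, which have no direction and so could not reverse. The SOX ratio of members to shared promoters could have fallen below equality. It did not, and ranged from 1.67 to 3.71 over the alternative settings. The count of 2516 parent-only promoter regions became 1405 when parent regions had to reach, at the ΔSRR2–18 depth, the 10th percentile of ΔSRR2–18 promoter regions, 1553 with a TSS within 500 bp, 5269 with a TSS within 2.5 kb and 1233 with protein-coding TSSs only. It stayed within 1.5 times, from 1827 to 3161, under the other 9 settings. The share of 15.2% became 9.54% at that depth limit, 11.0% at 500 bp, 24.1% at 2.5 kb, 8.91% with protein-coding TSSs, 19.1% with 50% reciprocal overlap, 13.6% against both ΔSRR2–18 lists, 12.3% and 11.0% with no ΔSRR2–18 region within 500 bp and within 1 kb, 16.4% with the parent optimal list and 13.5% with an IDR score of at least 830. The CpG-poor share of 84.5% became 76.5%, 87.6%, 88.4%, 89.2% and 82.5% with the reciprocal overlap, both lists, the gaps of 500 bp and 1 kb and the optimal list, 82.7%, 89.6% and 77.2% with TSSs at 500 bp, at 2.5 kb and protein-coding only, and 86.8% in 1000 bp. The SOX share of 12.4% became 10.8% with protein-coding TSSs and 7.03% within 50 bp of the summit, where the ratio to shared promoters of 2.95 became 3.71. That ratio was 1.67 within 10 groups of GC content. The 602 genes with no shared promoter region became 362 at the depth limit, where the 6 proneural and neurogenic genes became 3, a count whose alternatives were added after the data were seen. The share of parent-only regions around members was 58.4% within 10 kb. The cause of these shifts was not tested, beyond the fewer or more regions that each setting admits. Pooled lists limit every value to a description of 2 clones.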
